A study of Arabidopsis thaliana with 12 samples.

Results

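The genes described here are the protein-coding genes of the Arabidopsis thaliana chloroplast genome that encode subunits of the photosynthetic machinery. They were chosen by symbol: psa for photosystem I, psb for photosystem II, pet for the cytochrome b6f complex, atp for the chloroplast ATP synthase, ndh for the NADH dehydrogenase-like (NDH) complex, and rbcL for the large subunit of Rubisco. Of 44 genes on the list, 43 have a probe set that the annotation assigns to exactly 1 gene, among 22746 probe sets tested. They comprise 5 genes of photosystem I, 15 of photosystem II, 6 of cytochrome b6f, 6 of ATP synthase, 10 of NDH and 1 of Rubisco. The remaining gene, ndhB, shares its probe set with a second gene copy and is described apart.

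Total RNA of whole seedlings, 14 days old and grown on MS plates in long days, was labelled as biotinylated cRNA and measured on 12 one-colour Affymetrix arrays. The 4 groups of 3 biological replicates were wild-type Col-0 before cordycepin, Col-0 60 min after 150 mg/l cordycepin, xrn3-8 before cordycepin, and xrn3-8 60 min after the same dose. Cordycepin is an adenosine analogue that ends the RNA chain it enters, and XRN3 is a nuclear 5′ to 3′ exoribonuclease that acts in transcription termination. The study asked how the xrn3-8 allele alters the expression of protein-coding genes. No untreated group at 60 min is among the labelled groups, so in each comparison over time the drug cannot be told apart from time and handling. XRN3 has 0 named probe sets, so the genotype could not be checked by its own transcript.

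Chloroplast genes stand in clusters that are read as long precursor RNAs and then cut into shorter messengers. They are read by a bacterial-type RNA polymerase, whose core subunits are themselves encoded in the chloroplast and whose sigma factors come from the nucleus, and by phage-type polymerases encoded in the nucleus. In each complex the chloroplast supplies central subunits, for example the reaction centre proteins of both photosystems, and the nucleus supplies the rest.

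The deposited values are log2 signals, normalized between arrays by the authors, which sets each change against the bulk of the probe sets on its array. A gene was called changed where limma's adjusted p (Benjamini and Hochberg over all 22746 probe sets, two-sided, n = 3 arrays per group) was under 0.05. Chloroplast messengers carry no stable poly(A) tail, and the labels do not name the primer of cDNA synthesis. A change in signal, over time with an adenosine analogue included, can therefore be one in the amount of RNA or in the share of it that was copied, and these cannot be told apart. The plastid photosynthesis transcripts gave bright signals. The median over the 43 genes was 10.42 to 10.77 on the 12 arrays, whereas the median probe set of an array stood at 4.63 to 4.87. All but ndhF lay above the lowest 40% of probe sets. The mean of ndhF was 2.65, under the lower quartile of every array (2.98 to 3.10), and it was called in none of the 5 contrasts.

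Before cordycepin, the transcripts of D2, CP43 and CP47 of photosystem II (psbD, psbC and psbB) and of both large photosystem I proteins (psaA and psaB) were lower in xrn3-8 than in Col-0, whereas petG and rbcL were higher. The transcript of D1 (psbA) was not called. The log2 changes of the 43 genes ranged from -1.14 to 0.44, with a median of -0.12 against -0.01 over all probe sets. Of the 43, 10 were called lower (23.26%) and 2 higher (4.65%). Over all probe sets 17.6% were called lower and 14.3% higher. The 3 xrn3-8 arrays lay below the 3 Col-0 arrays without overlap for 17 members, which compares with 23.6% of all probe sets, and above them for 4 members, against 20.5%. In whole seedlings, fewer chloroplast-rich cells and less RNA per cell cannot be told apart. The members lower in the mutant were psbD, psbC, psbB, psbT, psbZ and psbH of photosystem II, psaA and psaB of photosystem I, atpI of ATP synthase and petB of cytochrome b6f. No NDH gene was called.

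After 60 min of cordycepin most of these differences were small. The median of the 43 changes between genotypes was -0.08 against 0.02 over all probe sets, with 1 member called lower (2.33%), psbC, and 2 called higher (4.65%), rbcL and petD. The shares over all probe sets were 15.6% lower and 16.6% higher. Of the 10 members lower in xrn3-8 before cordycepin, 1 was called lower after it too. Groups did not overlap for 2 members that were higher and 2 that were lower, against 21.1% and 19.2% of all probe sets.

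Over the 60 min, 16 members were called higher in xrn3-8 (37.21%) and 0 lower, and 9 were called higher (20.93%) and 1 lower (2.33%) in Col-0. The background calls over all probe sets were 24.5% higher and 15.9% lower for xrn3-8, and 26.3% higher and 20.1% lower for Col-0. The median member change was 0.19 in xrn3-8 against 0.09 over all probe sets, and 0.13 in Col-0 against 0.07. Both comparisons over time depend on the scale. With the arrays centred on their Bacillus subtilis spike controls, the median of all probe sets moved to -0.39 in xrn3-8 and -0.25 in Col-0. In these genotypes 27 and 17 members were then called lower, and 0 were called higher in either. Of all 22746 probe sets, 17244 in xrn3-8 and 11556 in Col-0 were called lower on this scale, and 237 and 1353 higher. Of the 16 members higher in xrn3-8, 7 stayed above 0 under all 4 other scalings: psbB, psbC, psbD, psbT, petD, atpI and ndhH. Of the 10 members called in Col-0, 4 kept their direction in this way: psbM, ndhG and ndhK above 0 and rbcL below it. Groups did not overlap for 20 members that were higher in xrn3-8 after cordycepin, against 31.5% of all probe sets, and for 10 members higher in Col-0, against 31.9%. They did not overlap for 0 members that were lower in xrn3-8 and 1 that was lower in Col-0, against 17.8% and 21.8%. Cordycepin-treated arrays were compared with the same untreated arrays that enter the genotype comparison, so the rise in xrn3-8 and the deficit before cordycepin share 3 arrays.

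The difference between the genotypes in their change over time was tested as an interaction. It was called for 2 members, psbD and psbC (4.65% of members, against 5.08% of all probe sets called higher), with 0 members called lower against 2.97%, and both calls held under all 4 other scalings. The median interaction of the 43 genes was 0.06 against 0.02 over all probe sets, with 25 values above 0 and 18 below. That median turned below 0 under centring on Bacillus subtilis (-0.11), hybridization (-0.01) and housekeeping (-0.03) probe sets.

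**Figure D1:**
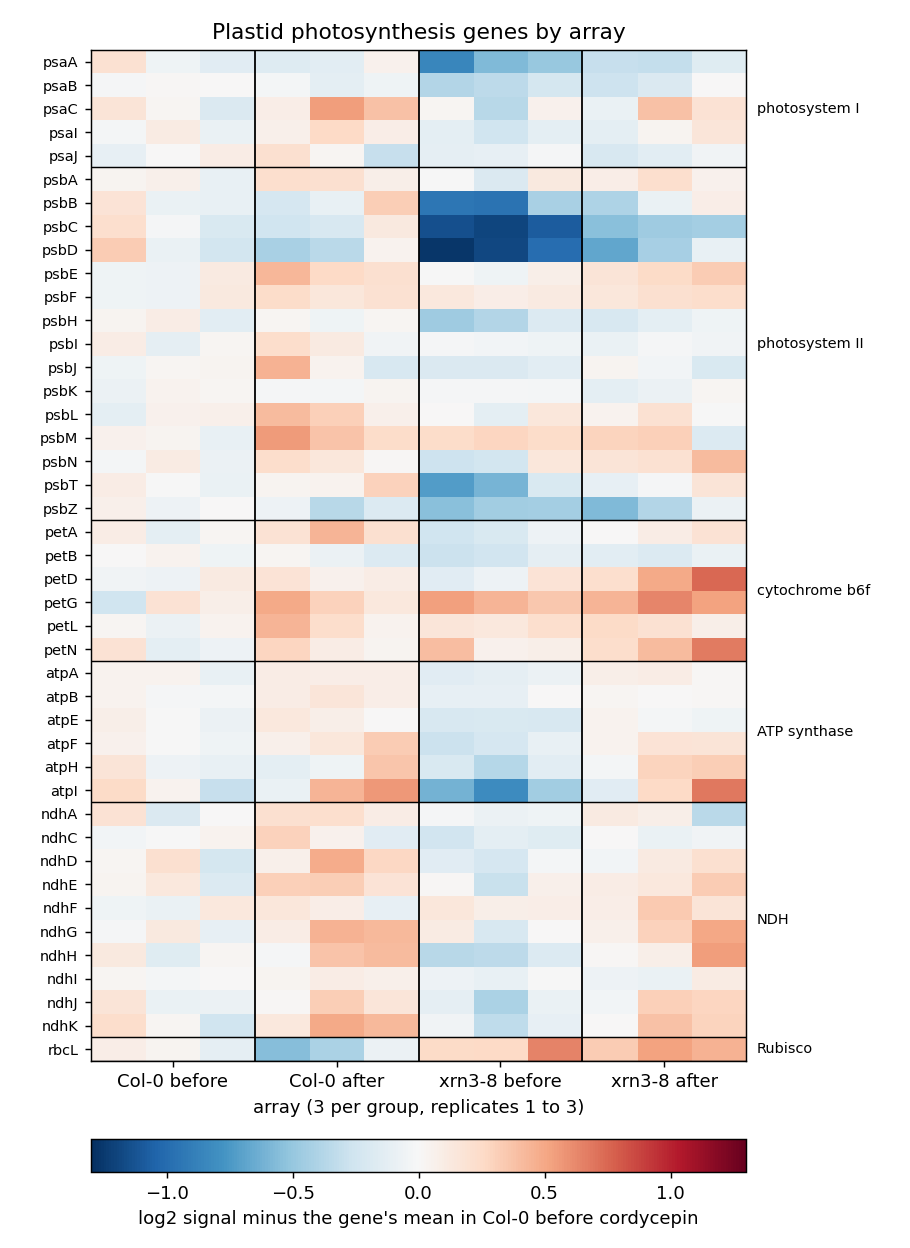
Log2 signal of the 43 plastid photosynthesis genes on the 12 arrays, minus the gene's mean in Col-0 before cordycepin, with genes in rows by complex and arrays in columns by group. The lowest cells are psbD and psbC in xrn3-8 before cordycepin, where both genes averaged 1.14 below Col-0; values over time are relative to the array average and turn for many genes under other scalings.

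Photosystem II splits water and holds a core of the D1 and D2 proteins with the inner antennae CP47 and CP43. The transcripts of D2 (psbD) and CP43 (psbC) showed the largest decrease of all members in xrn3-8 before cordycepin. The log2 signals of psbD were 9.87, 9.45 and 9.30 in Col-0 before cordycepin, 8.28, 8.36 and 8.55 in xrn3-8 before it, 9.12, 9.19 and 9.59 in Col-0 after it, and 8.86, 9.11 and 9.44 in xrn3-8 after it. Before cordycepin every mutant array lay below every wild-type array, and after it the genotypes overlapped. The change was -1.14 ± 0.16 (SE, n = 3 arrays per group, adjusted p = 4.3e-05) before cordycepin, a 2.21-fold difference, and -0.16 ± 0.16 (adjusted p = 0.4942) after it. In xrn3-8, psbD rose by 0.74 ± 0.16 over the 60 min (adjusted p = 0.0016), and this rise stayed above 0 but missed the threshold with Bacillus subtilis centring (0.25) and with centring on housekeeping genes (0.37). In Col-0 the change was -0.24 ± 0.16 (adjusted p = 0.2423). The 2 changes over time differed by 0.98 ± 0.23 (interaction, adjusted p = 0.0138).

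The reading frame of psbC follows psbD in the same transcription unit, so the pair share precursor RNA and are not independent. The signals of psbC were 10.84, 10.61 and 10.43 in Col-0 before cordycepin, 9.48, 9.43 and 9.54 in xrn3-8 before it, 10.37, 10.42 and 10.75 in Col-0 after it, and 10.08, 10.16 and 10.18 in xrn3-8 after it. The mutant arrays of psbC lay below all wild-type arrays at both times, whereas those of psbD did so before cordycepin. The deficit in xrn3-8 was -1.14 ± 0.11 before cordycepin (adjusted p = 8.04e-07) and -0.37 ± 0.11 after it (adjusted p = 0.0151); the second call was lost without Col-0 replicate 3 after cordycepin, where the change was -0.26 and the adjusted p 0.0909, and without xrn3-8 replicate 1 after cordycepin. Over time psbC rose in xrn3-8 by 0.66 ± 0.11 (adjusted p = 1.82e-04), with 0.17 and no call under Bacillus subtilis centring, and changed by -0.11 ± 0.11 in Col-0 (adjusted p = 0.4278). The interaction was 0.77 ± 0.16 (adjusted p = 0.0059). Leaving out any 1 of the 12 arrays kept the interaction of psbC between 0.66 and 0.89 and that of psbD between 0.82 and 1.13, all past the threshold.

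Last in this unit is psbZ, a small subunit near CP43. Its signals were 11.32, 11.18 and 11.25 in Col-0 and 10.71, 10.80 and 10.81 in xrn3-8 before cordycepin, and 11.18, 10.89 and 11.07 in Col-0 and 10.68, 10.87 and 11.17 in xrn3-8 after it. The mutant differed by -0.48 ± 0.11 before cordycepin (adjusted p = 0.003), with no overlap, and by -0.14 ± 0.11 after it (adjusted p = 0.3771). No change over time in psbZ was called in either genotype (-0.20 in Col-0 and 0.13 in xrn3-8).

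The CP47 gene psbB heads a second unit, which runs on through psbT and psbH, small subunits of photosystem II, to petB and petD of cytochrome b6f. The signals of psbB were 11.06, 10.80 and 10.79 in Col-0 before cordycepin, 9.94, 9.92 and 10.46 in xrn3-8 before it, 10.66, 10.79 and 11.20 in Col-0 after it, and 10.48, 10.80 and 10.97 in xrn3-8 after it. Replicate 3 of xrn3-8 before cordycepin was nearest to the wild type, and its 3 arrays still lay below those of Col-0. The deficit was -0.78 ± 0.16 before cordycepin (adjusted p = 0.0014) and -0.13 ± 0.16 after it (adjusted p = 0.5901). In the mutant psbB rose by 0.64 ± 0.16 (adjusted p = 0.0046; 0.16 under Bacillus subtilis centring, not called), whereas the means of Col-0 did not move (0.00 ± 0.16). The interaction of 0.64 ± 0.23 did not pass the threshold (adjusted p = 0.1011).

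The next gene, psbT, read 8.48, 8.37 and 8.29 in Col-0 and 7.65, 7.78 and 8.18 in xrn3-8 before cordycepin, and 8.42, 8.43 and 8.68 in Col-0 and 8.27, 8.36 and 8.55 in xrn3-8 after it. The change of psbT in xrn3-8 against Col-0 was -0.51 ± 0.12 before cordycepin (adjusted p = 0.0042), and psbT rose in xrn3-8 by 0.52 ± 0.12 (adjusted p = 0.0029; 0.04 under Bacillus subtilis centring, not called). The third gene, psbH, read 10.86, 10.92 and 10.69 in Col-0 and 10.36, 10.44 and 10.65 in xrn3-8 before cordycepin, and 10.85, 10.77 and 10.85 in Col-0 and 10.62, 10.70 and 10.77 in xrn3-8 after it. Its deficit of -0.34 ± 0.09 (adjusted p = 0.0083) was called, without overlap, but was not called without xrn3-8 replicate 1 before cordycepin, or under centring on hybridization controls. Its change over time in the mutant of 0.21 ± 0.09 was not called (adjusted p = 0.0719).

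The other photosystem II genes did not differ between the genotypes by the test at either time. The D1 gene psbA, whose product is renewed at a high rate in the light, read 11.62, 11.65 and 11.49 in Col-0 and 11.58, 11.40 and 11.71 in xrn3-8 before cordycepin. That difference was -0.02, with a 95% interval from -0.22 to 0.17, which does not reach the value of psbD. For psbK, a small subunit, it was -0.02 with an interval from -0.18 to 0.14. The cytochrome b559 genes psbE and psbF and their neighbours psbL and psbJ, read as 1 unit, changed by 0.01, 0.11, 0.01 and -0.17 before cordycepin. In Col-0 psbE (0.30 ± 0.09, adjusted p = 0.0093), psbF (0.19 ± 0.08, adjusted p = 0.0496) and psbL (0.26 ± 0.10, adjusted p = 0.0474) rose over the 60 min relative to the array average, and each turned below 0 under Bacillus subtilis centring (-0.03, -0.13 and -0.06). In xrn3-8 psbE rose by 0.24 ± 0.09 (adjusted p = 0.035), a value that turned to -0.25 under the same centring. The calls in Col-0 were lost for psbF when any of 10 of the 12 arrays was left out, for psbL with any of 7 and for psbE with 1 (Col-0 replicate 1 after cordycepin), and that of psbE in xrn3-8 with any of 4. The signals of psbE were 10.63, 10.62 and 10.80 in Col-0 before cordycepin and 11.11, 10.94 and 10.89 after it, without overlap.

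The small subunit gene psbM was the brightest of photosystem II. It read 12.09, 12.07 and 11.93 in Col-0 before cordycepin, 12.58, 12.40 and 12.27 in Col-0 after it, 12.27, 12.31 and 12.27 in xrn3-8 before it, and 12.32, 12.34 and 11.85 in xrn3-8 after it. It rose in Col-0 by 0.39 ± 0.12 (adjusted p = 0.0121; 0.06 under Bacillus subtilis centring, not called), a call lost without Col-0 replicate 3 before or replicate 1 after cordycepin, and its change in xrn3-8 was -0.11 ± 0.12. This gave the lowest interaction of all members, -0.50 ± 0.17, which did not pass the threshold (adjusted p = 0.0767). It was called under Bacillus subtilis centring (-0.66, adjusted p = 0.0231) and housekeeping centring (-0.59, adjusted p = 0.0477). It was also called with a trended and robust prior variance (adjusted p = 0.0492), with the replicate number as a block (adjusted p = 0.0355) and without xrn3-8 replicate 2 after cordycepin (-0.58, adjusted p = 0.0467). No call was made under hybridization centring (-0.57, adjusted p = 0.1648) or quantile normalization (-0.50, adjusted p = 0.0879), or with any other array left out. Without xrn3-8 replicate 3 after cordycepin, the array at 11.85, the value was -0.34 (adjusted p = 0.1317). A last gene, psbN, lies on the opposite strand between psbT and psbH and encodes a protein known from tobacco to act in the assembly of photosystem II. Its change between genotypes was -0.12 ± 0.11 before cordycepin, and it rose in xrn3-8 over time by 0.38 ± 0.11 (adjusted p = 0.0123), a value that turned to -0.11 under Bacillus subtilis centring and lost its call without xrn3-8 replicate 1 or 2 before or replicate 3 after cordycepin.

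**Figure D2:**
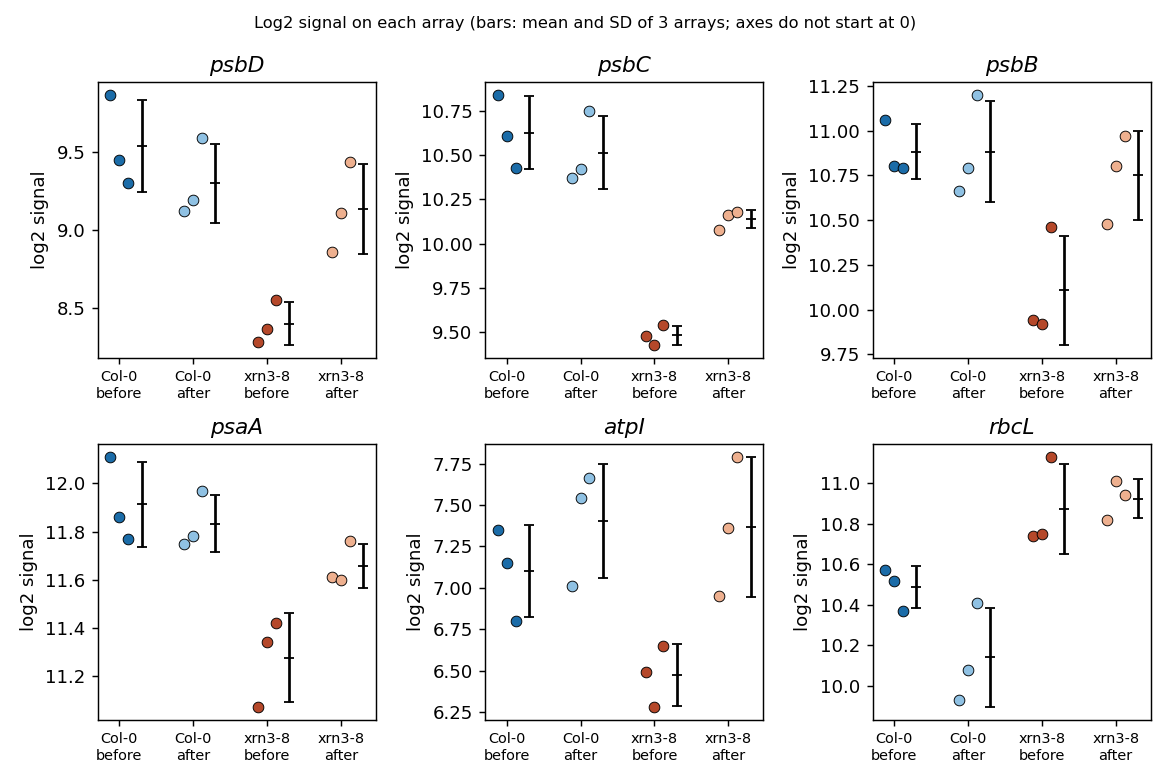
Log2 signal on each array for psbD, psbC, psbB, psaA, atpI and rbcL in the 4 groups (points: arrays; bars: mean and SD, n = 3). The 3 xrn3-8 arrays before cordycepin lie below all Col-0 arrays for the first 5 genes, and the rbcL signals of xrn3-8 lie above those of Col-0 at both times.

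Photosystem I passes electrons from plastocyanin to ferredoxin across a core of a pair of large proteins encoded by psaA and psaB. The signals of psaA were 12.11, 11.86 and 11.77 in Col-0 before cordycepin, 11.07, 11.34 and 11.42 in xrn3-8 before it, 11.75, 11.78 and 11.97 in Col-0 after it, and 11.61, 11.60 and 11.76 in xrn3-8 after it. For psaB they were 12.75, 12.78 and 12.77, then 12.39, 12.43 and 12.54, then 12.74, 12.64 and 12.71, and last 12.50, 12.58 and 12.77 in the same order of groups. Both genes lay lower in xrn3-8 without overlap before cordycepin, and the genotypes overlapped after it. The deficit of psaA was -0.64 ± 0.11 (adjusted p = 2.6e-04) before cordycepin and -0.18 ± 0.11 (adjusted p = 0.2452) after it. The deficit of psaB was -0.31 ± 0.08 (adjusted p = 0.0079) and -0.08 ± 0.08 (adjusted p = 0.5192), the first not called under centring on hybridization controls. In xrn3-8 psaA rose by 0.38 ± 0.11 (adjusted p = 0.0106), which turned to -0.11 under Bacillus subtilis centring and was not called without xrn3-8 replicate 1 before cordycepin. The interaction of psaA was 0.46 ± 0.15 (adjusted p = 0.08).

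The signals of psaC were 9.78, 9.64 and 9.43 in Col-0 and 9.64, 9.26 and 9.67 in xrn3-8 before cordycepin, and 9.70, 10.16 and 10.00 in Col-0 and 9.53, 10.00 and 9.80 in xrn3-8 after it. Those of psaJ were 12.32, 12.43 and 12.52 in Col-0 and 12.31, 12.32 and 12.41 in xrn3-8 before cordycepin, and 12.63, 12.45 and 12.12 in Col-0 and 12.22, 12.29 and 12.38 in xrn3-8 after it. The genotypes overlapped at both times for both genes. The iron-sulfur subunit gene psaC and the small subunit genes psaI and psaJ were not called in any contrast. Before cordycepin their changes between genotypes were -0.09, -0.17 and -0.08, and after it -0.18, -0.11 and -0.10. Over time psaC changed by 0.34 ± 0.14 in Col-0 (adjusted p = 0.0668) and by 0.25 ± 0.14 in xrn3-8 (adjusted p = 0.1735). All 5 genes of photosystem I had values below 0 for the genotype comparison at both times, with medians of -0.17 and -0.11.

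Cytochrome b6f links the photosystems, and its 6 genes did not move together. The cytochrome b6 gene petB, the brightest, read 12.81, 12.85 and 12.74 in Col-0 and 12.52, 12.55 and 12.68 in xrn3-8 before cordycepin, and 12.83, 12.72 and 12.62 in Col-0 and 12.66, 12.62 and 12.71 in xrn3-8 after it. Its deficit of -0.22 ± 0.08 before cordycepin stood at the threshold (adjusted p = 0.05 after rounding) and was lost when 1 of 8 of the 12 arrays was left out and under 3 other scalings. The subunit IV gene petD read 4.80, 4.78 and 4.96 in Col-0 and 4.70, 4.78 and 5.02 in xrn3-8 before cordycepin, and 5.02, 4.90 and 4.94 in Col-0 and 5.06, 5.34 and 5.59 in xrn3-8 after it. Before cordycepin petD did not differ by the test (-0.01, 95% interval from -0.26 to 0.24), and in xrn3-8 it rose over the 60 min by 0.50 ± 0.12 (adjusted p = 0.0031; 0.01 under Bacillus subtilis centring, not called). After cordycepin it was higher in xrn3-8 by 0.38 ± 0.12 (adjusted p = 0.0211), which missed the threshold under 3 other scalings, with values of 0.27, 0.29 and 0.30, and without replicate 2 or 3 of either genotype after cordycepin.

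The small subunit gene petG was 1 of the 2 members higher in xrn3-8 before cordycepin. It read 6.05, 6.49 and 6.38 in Col-0 and 6.84, 6.75 and 6.66 in xrn3-8 before cordycepin, and 6.80, 6.61 and 6.44 in Col-0 and 6.75, 6.94 and 6.83 in xrn3-8 after it. The groups did not overlap before cordycepin, where the change was 0.44 ± 0.11 (adjusted p = 0.0066), called under all 4 other scalings. After it the change was 0.22 ± 0.11 (adjusted p = 0.1567). In Col-0 petG rose by 0.31 ± 0.11 (adjusted p = 0.0352), a value that turned to -0.01 under Bacillus subtilis centring and was 0.18, not called, without Col-0 replicate 1 before cordycepin. The call was also lost without Col-0 replicate 1 (0.22) or 2 (0.31) after it. Its neighbours in the same unit, petL, another small subunit, and psaJ, changed between the genotypes by 0.17 ± 0.09 (adjusted p = 0.2014) and -0.08 ± 0.11 (adjusted p = 0.6599) before cordycepin. The signals of petL were 10.29, 10.19 and 10.31 in Col-0 and 10.42, 10.40 and 10.48 in xrn3-8 before cordycepin, without overlap, and 10.71, 10.49 and 10.31 in Col-0 and 10.51, 10.46 and 10.34 in xrn3-8 after it, with overlap. In Col-0 petL rose by 0.24 ± 0.09 (adjusted p = 0.0484), a value that turned to -0.08 under Bacillus subtilis centring and lost its call when any of 10 of the 12 arrays was left out.

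The cytochrome f gene petA rose by nearly the same amount in both genotypes, 0.28 ± 0.09 in Col-0 (adjusted p = 0.0215) and 0.28 ± 0.09 in xrn3-8 (adjusted p = 0.0267), relative to the array average, and both values turned below 0 under Bacillus subtilis centring (-0.04 and -0.21). Its signals were 10.84, 10.61 and 10.77 in Col-0 before cordycepin and 10.93, 11.18 and 10.95 after it, and 10.48, 10.54 and 10.67 in xrn3-8 before it and 10.75, 10.84 and 10.93 after it. Neither genotype's arrays overlapped between the times, and the calls were lost when any of 2 arrays (Col-0) or any of 4 (xrn3-8) was left out. The sixth gene, petN, a small subunit at signals of 5.94 to 6.74, was not called, with 0.18 ± 0.12 between genotypes before cordycepin and 0.30 ± 0.12 after it (adjusted p = 0.0782).

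ATP synthase makes ATP from the proton gradient; in the chloroplast genome lie genes of its membrane sector (atpI, atpH, atpF) and of its catalytic head and stalk (atpA, atpB, atpE). All 6 values were below 0 for xrn3-8 against Col-0 before cordycepin, with a median of -0.20, and 1 was called. That gene, atpI, which encodes subunit a, read 7.35, 7.15 and 6.80 in Col-0 and 6.49, 6.28 and 6.65 in xrn3-8 before cordycepin, and 7.01, 7.54 and 7.66 in Col-0 and 6.95, 7.36 and 7.79 in xrn3-8 after it. The arrays of the genotypes were apart before cordycepin and overlapped after it. The deficit was -0.63 ± 0.20 (adjusted p = 0.0219), not called when any of 4 of the 12 arrays was left out, with adjusted p up to 0.1035 and a change of -0.50 without Col-0 replicate 1 before cordycepin. The other 3 were Col-0 replicate 2 and xrn3-8 replicates 1 and 2, all before cordycepin. The call was also lost with a trended and robust prior variance (adjusted p = 0.0538). In xrn3-8 atpI rose by 0.89 ± 0.20 (adjusted p = 0.0018), the largest rise of any member, with 0.41 and no call under Bacillus subtilis centring. The change in Col-0 was 0.30 ± 0.20 (adjusted p = 0.226) and the interaction 0.59 ± 0.28 (adjusted p = 0.2343).

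The c-ring subunit gene atpH read 11.23, 11.00 and 10.97 in Col-0 and 10.87, 10.70 and 10.93 in xrn3-8 before cordycepin, and 10.94, 11.01 and 11.43 in Col-0 and 11.04, 11.36 and 11.39 in xrn3-8 after it. The stator gene atpF read 11.12, 11.06 and 11.01 in Col-0 and 10.78, 10.84 and 10.97 in xrn3-8 before cordycepin, and 11.13, 11.21 and 11.39 in Col-0 and 11.11, 11.24 and 11.23 in xrn3-8 after it. Both genes lay lower in xrn3-8 without overlap before cordycepin, but neither passed the test (-0.23 ± 0.13, adjusted p = 0.1927 and -0.20 ± 0.09, adjusted p = 0.0924). Over time in xrn3-8 atpH rose by 0.43 ± 0.13 (adjusted p = 0.0135) and atpF by 0.33 ± 0.09 (adjusted p = 0.0061), values that turned to -0.06 and -0.16 under Bacillus subtilis centring. The rise of atpH was not called without xrn3-8 replicate 2 before cordycepin or without replicate 2 or 3 after it.

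The catalytic subunit genes had bright signals and were called in none of the 5 contrasts. The alpha subunit gene atpA read 12.06, 12.06 and 11.92 in Col-0 and 11.87, 11.90 and 11.94 in xrn3-8 before cordycepin, and 12.11, 12.10 and 12.10 in Col-0 and 12.09, 12.11 and 12.03 in xrn3-8 after it. The beta subunit gene atpB read 12.89, 12.82 and 12.81 in Col-0 and 12.73, 12.73 and 12.85 in xrn3-8 before cordycepin, and 12.94, 13.00 and 12.93 in Col-0 and 12.87, 12.85 and 12.86 in xrn3-8 after it. Its partner atpE, the epsilon subunit, read 12.96, 12.88 and 12.81 in Col-0 and 12.68, 12.69 and 12.68 in xrn3-8 before cordycepin, and 13.02, 12.96 and 12.89 in Col-0 and 12.93, 12.86 and 12.83 in xrn3-8 after it. The difference of atpB before cordycepin was -0.07, with a 95% interval from -0.22 to 0.08. That of atpE, without overlap, was -0.20 ± 0.07 and just missed the threshold (adjusted p = 0.0509). Of the 9 members whose mean signal was above 12, 2 were called between the genotypes before cordycepin, psaB and petB, both lower (22.2%). The share called lower was 23.5% of the 34 members with a mean of 12 or less and 17.6% of all probe sets. The changes of the 9 genes above 12 ranged from -0.31 for psaB to 0.25 for psbM. The part of signal level in the size of a change was not tested.

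**Figure D3:**
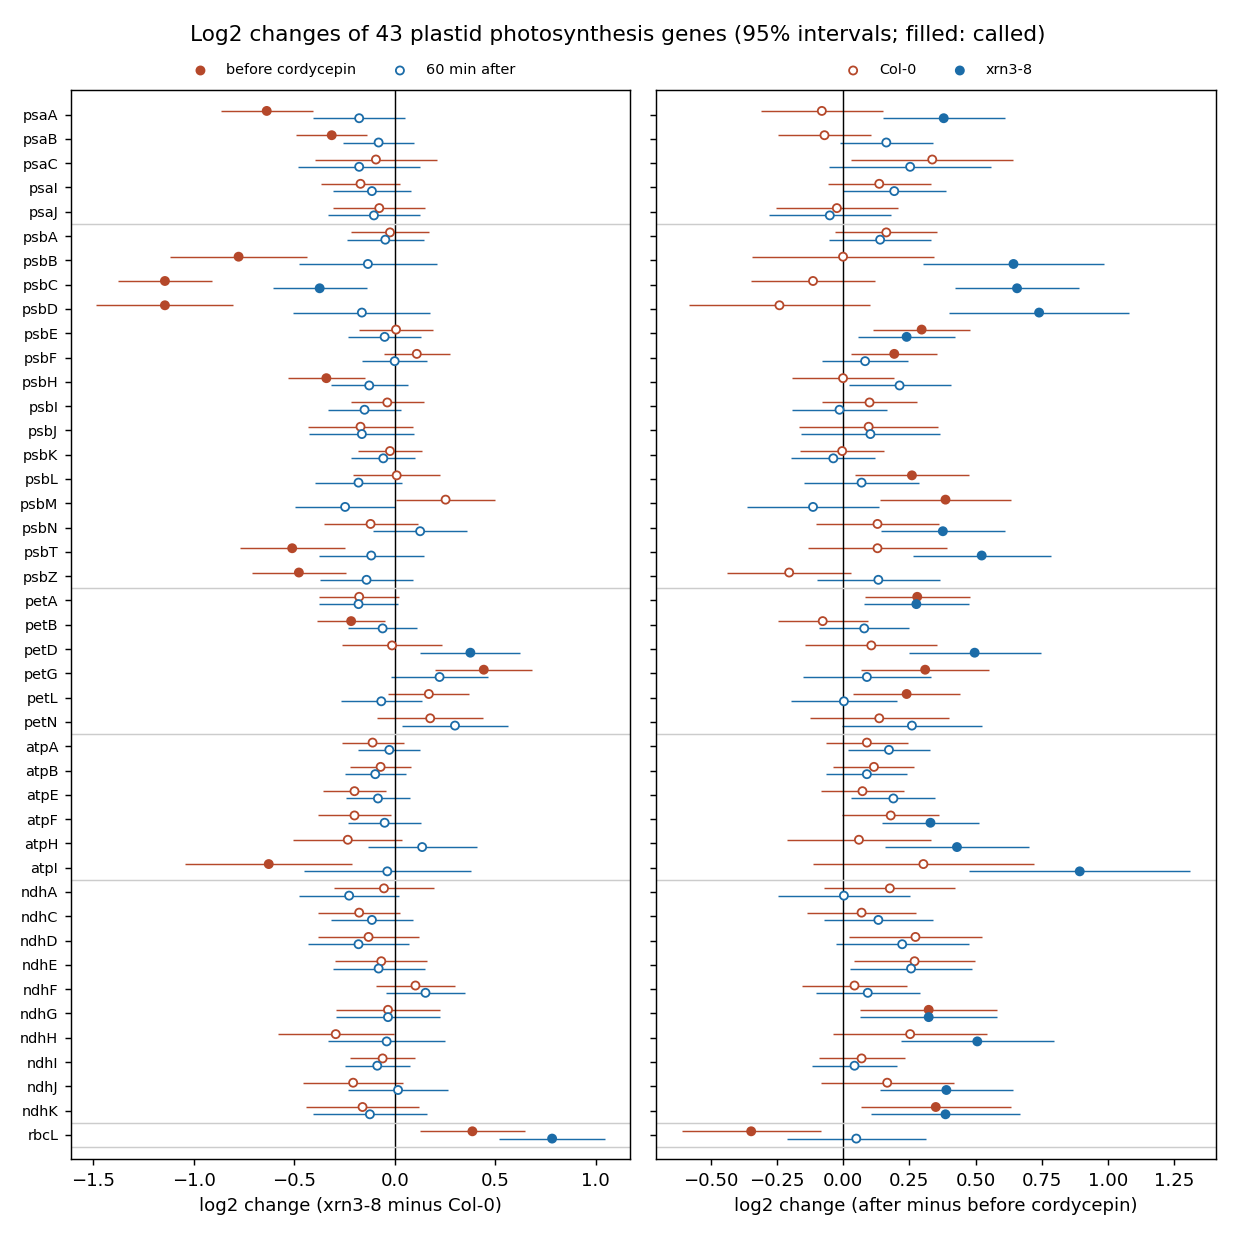
Log2 change of each of the 43 genes with its 95% interval, between genotypes before and after cordycepin (left) and over time in each genotype (right), with filled points for genes called at adjusted p under 0.05. On the left the values before cordycepin run from -1.14 for psbD and psbC to 0.44 for petG; on the right all values are relative to the array average, and the median of the members turned below 0 under 3 of the 4 other scalings.

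The NDH complex carries electrons back from ferredoxin into the thylakoid membrane. None of its 10 genes with a probe set of their own was called between the genotypes at either time, and the changes ranged from -0.29 to 0.10 before cordycepin and from -0.23 to 0.15 after it. The lowest value was that of ndhH (-0.29 ± 0.14, adjusted p = 0.1193), which heads the longest ndh unit. Its signals of 8.32, 8.04 and 8.22 in Col-0 and 7.83, 7.85 and 8.02 in xrn3-8 before cordycepin did not overlap. After cordycepin they were 8.18, 8.56 and 8.60 in Col-0 and 8.21, 8.27 and 8.74 in xrn3-8, which overlap. In xrn3-8 ndhH rose by 0.51 ± 0.14 (adjusted p = 0.0073; 0.02 under Bacillus subtilis centring, not called).

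In the same unit, ndhI was the brightest ndh gene, at 12.20, 12.14 and 12.17 in Col-0 and 12.10, 12.07 and 12.16 in xrn3-8 before cordycepin, and 12.21, 12.27 and 12.24 in Col-0 and 12.10, 12.08 and 12.28 in xrn3-8 after it. Its difference before cordycepin was -0.06, with a 95% interval from -0.22 to 0.10. Further along, ndhG read 5.84, 5.99 and 5.75 in Col-0 and 5.97, 5.65 and 5.86 in xrn3-8 before cordycepin, and 5.96, 6.31 and 6.28 in Col-0 and 5.93, 6.16 and 6.36 in xrn3-8 after it. It rose by 0.32 ± 0.12 in Col-0 (adjusted p = 0.0399) and by 0.32 ± 0.12 in xrn3-8 (adjusted p = 0.0451), with overlapping arrays in both; Bacillus subtilis centring left 0.0009 in Col-0 and turned the value to -0.16 in xrn3-8. The calls were lost when any of 4 arrays (Col-0) or any of 5 (xrn3-8) was left out. The signals of ndhA were 10.51, 10.13 and 10.32 in Col-0 and 10.30, 10.24 and 10.26 in xrn3-8 before cordycepin, and 10.53, 10.54 and 10.42 in Col-0 and 10.44, 10.40 and 9.97 in xrn3-8 after it. For ndhE they were 8.54, 8.64 and 8.32 in Col-0 and 8.52, 8.21 and 8.57 in xrn3-8 before cordycepin, and 8.81, 8.82 and 8.68 in Col-0 and 8.60, 8.64 and 8.83 in xrn3-8 after it. For ndhD they were 11.21, 11.39 and 10.96 in Col-0 and 11.04, 10.97 and 11.16 in xrn3-8 before cordycepin, and 11.25, 11.67 and 11.46 in Col-0 and 11.15, 11.30 and 11.39 in xrn3-8 after it. The genotypes overlapped for all 3 genes at both times. These genes, ndhA, ndhE and ndhD, were not called in any contrast, with changes between genotypes of -0.05, -0.07 and -0.13 before cordycepin.

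The second ndh unit holds ndhC, ndhK and ndhJ. Before cordycepin they changed between the genotypes by -0.18, -0.16 and -0.21, none called. The signals of ndhC were 10.16, 10.19 and 10.24 in Col-0 and 9.95, 10.07 and 10.04 in xrn3-8 before cordycepin, without overlap, and 10.50, 10.25 and 10.05 in Col-0 and 10.20, 10.11 and 10.15 in xrn3-8 after it. The gene read with it, ndhJ, stood at 10.10, 9.84 and 9.85 in Col-0 and 9.81, 9.52 and 9.84 in xrn3-8 before cordycepin, and 9.95, 10.25 and 10.09 in Col-0 and 9.89, 10.24 and 10.21 in xrn3-8 after it, with overlap at both times. The signals of ndhK were 9.06, 8.85 and 8.57 in Col-0 and 8.78, 8.50 and 8.72 in xrn3-8 before cordycepin, and 8.96, 9.32 and 9.25 in Col-0 and 8.83, 9.21 and 9.12 in xrn3-8 after it. It rose by 0.35 ± 0.13 in Col-0 (adjusted p = 0.0409; 0.03 under Bacillus subtilis centring) and by 0.39 ± 0.13 in xrn3-8 (adjusted p = 0.0291; turned to -0.10). For ndhJ the rise in xrn3-8 was 0.39 ± 0.12 (adjusted p = 0.0148; turned to -0.10) and the change in Col-0 was 0.17 ± 0.12 (adjusted p = 0.2704). The calls of ndhJ and ndhK in xrn3-8 were both lost without xrn3-8 replicate 2 before cordycepin or without replicate 2 or 3 after it, and that of ndhK in Col-0 when any of 4 arrays was left out. The shared probe set of ndhB read 3.45, 3.29 and 3.52 in Col-0 and 3.89, 3.62 and 3.42 in xrn3-8 before cordycepin, and 3.69, 3.57 and 3.68 in Col-0 and 3.58, 4.50 and 4.36 in xrn3-8 after it, so a pair of arrays carries its change in the treated mutant (0.50 ± 0.18 over time, adjusted p = 0.0320, and 0.50 ± 0.18 against Col-0 after cordycepin, adjusted p = 0.0395).

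The large subunit of Rubisco, which fixes carbon dioxide, is encoded by rbcL, and this gene was called higher in xrn3-8 at both times. Its signals were 10.57, 10.52 and 10.37 in Col-0 before cordycepin, 9.93, 10.08 and 10.41 in Col-0 after it, 10.74, 10.75 and 11.13 in xrn3-8 before it, and 10.82, 11.01 and 10.94 in xrn3-8 after it. The mutant arrays lay above the wild-type arrays at both times. The difference was 0.39 ± 0.12 before cordycepin (adjusted p = 0.0246) and 0.78 ± 0.12 after it (adjusted p = 1.14e-04), a 1.31-fold and a 1.72-fold difference. The first was not called under centring on hybridization controls, nor without xrn3-8 replicate 3 before cordycepin (0.26, adjusted p = 0.1387) or Col-0 replicate 3 before cordycepin. The second was called under every scaling and with any array left out. In Col-0 rbcL fell over time by 0.35 ± 0.12 (adjusted p = 0.0304), in the same direction and called under all 4 other scalings, but not when any of 4 arrays was left out, namely Col-0 replicate 1 or 2 before or after cordycepin (-0.24 without replicate 1 after it). In xrn3-8 it changed by 0.05 ± 0.12 (adjusted p = 0.7732), and the interaction of 0.40 ± 0.18 did not pass the threshold (adjusted p = 0.1988).

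The photosynthesis genes called lower in xrn3-8 before cordycepin lie in 4 transcription units. Within these units the decrease was larger near the start of the unit than at its end. This order was noticed in the data and is given as a description with no test. In the psbB unit the changes in the order of transcription were -0.78 for psbB, -0.51 for psbT, -0.34 for psbH, -0.22 for petB and -0.01 for petD. In the psbD unit they were -1.14 for psbD, -1.14 for psbC and -0.48 for psbZ. In the psaA unit they were -0.64 for psaA, -0.31 for psaB and 0.11 for rps14, a ribosomal protein gene. The atpI unit opens with rps2, another ribosomal protein gene, at -0.61, followed by atpI at -0.63, atpH at -0.23, atpF at -0.20 and atpA at -0.11. In other units the order was absent or partial. The changes were -0.07 for atpB and -0.20 for atpE, and -0.02 for psbK and -0.04 for psbI. For rpoB, rpoC1 and rpoC2 they were -0.80, -0.31 and -0.72. Of these, rpoB and rpoC2 were called lower as well, so a further unit with lowered genes did not show the order. In the ndhH unit the first gene was the lowest, at -0.29, and the later ones lay between -0.03 and -0.13, none called. Values were -0.18, -0.16 and -0.21 for ndhC, ndhK and ndhJ, and 0.01, 0.11, 0.01 and -0.17 for psbE, psbF, psbL and psbJ. For petL, petG and psaJ they were 0.17, 0.44 and -0.08. The position of the probes within the genes was not used here. Signal level also differed along these units. Means over all arrays were 10.66 for psbB, 12.69 for petB and 4.99 for petD, and 9.09 for psbD and 10.99 for psbZ. They were 11.67 for psaA and 12.63 for psaB, and 7.09 for atpI and 12.02 for atpA. Before cordycepin rps14 averaged 3.83 in Col-0 and 3.94 in xrn3-8, near the limit of the lowest 40% of probe sets (3.92). The part of signal level in this order was not tested.

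The unequal change within a unit can be read on each array, where a shift of the whole array cancels. A scaling that depends on signal level, such as quantile normalization, does not cancel in this way. The log2 signal of psbB minus that of petB was -1.75, -2.05 and -1.95 in Col-0 and -2.58, -2.63 and -2.22 in xrn3-8 before cordycepin, and -2.17, -1.93 and -1.42 in Col-0 and -2.18, -1.82 and -1.74 in xrn3-8 after it. For psbD minus psbZ the differences were -1.45, -1.73 and -1.95 in Col-0 and -2.43, -2.44 and -2.26 in xrn3-8 before cordycepin, and -2.06, -1.70 and -1.48 in Col-0 and -1.82, -1.76 and -1.73 in xrn3-8 after it. For psaA minus psaB they were -0.64, -0.92 and -1.0 in Col-0 and -1.32, -1.09 and -1.12 in xrn3-8 before cordycepin, and -0.99, -0.86 and -0.74 in Col-0 and -0.89, -0.98 and -1.01 in xrn3-8 after it. In all 3 pairs the genotypes were apart before cordycepin and overlapped after it, and so they did for atpI minus atpA (-4.71 to -5.12 in Col-0 and -5.29 to -5.62 in xrn3-8 before it, -4.44 to -5.10 and -4.24 to -5.14 after it). These are differences between 2 probe sets on 1 array and show unequal change, not which of the 2 genes moved. The pairs were chosen after their values were seen, so their separation restates the order described above and does not test it. How often other pairs of probe sets are apart in this way was not counted.

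**Figure D4:**
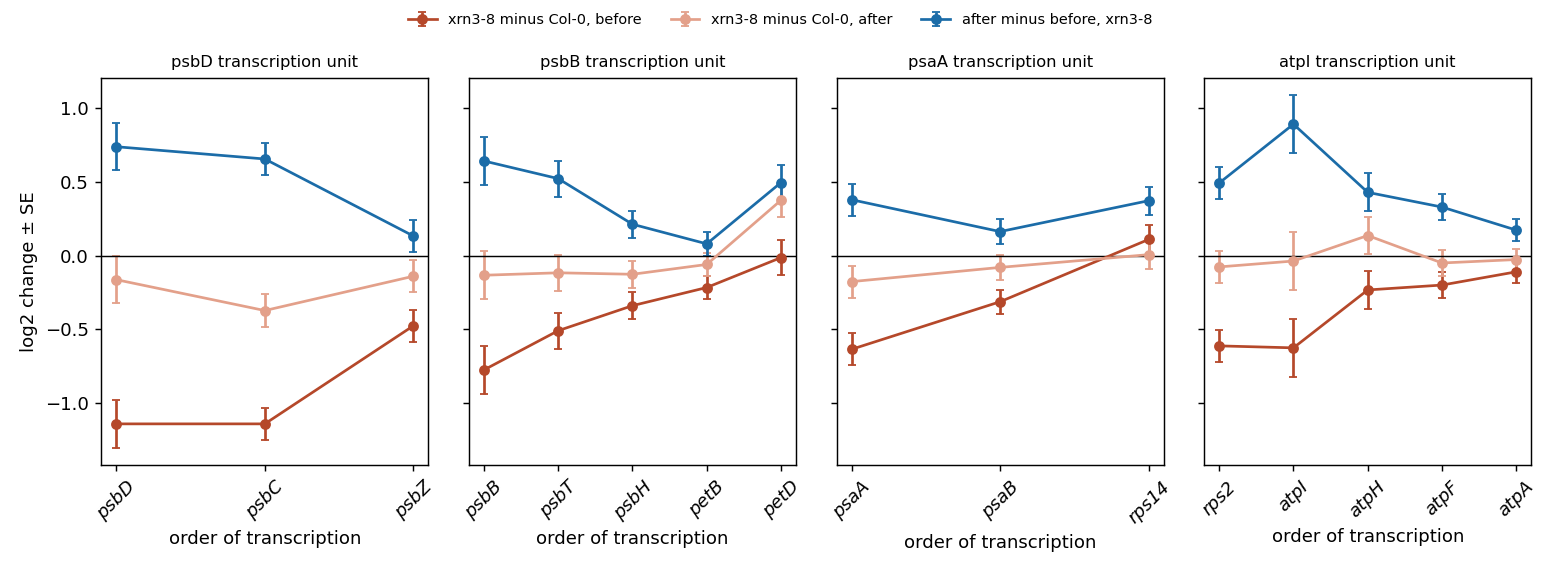
Log2 change with its SE (limma, n = 3 arrays per group) along 4 chloroplast transcription units, with genes in the order in which they are transcribed. Before cordycepin the change in xrn3-8 runs from -0.78 for psbB to -0.01 for petD, while after cordycepin the values of all genes drawn lie between -0.37 for psbC and 0.38 for petD; the rise over time in xrn3-8 is relative to the array average.

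Beyond photosynthesis, 26 other chloroplast genes have a probe set of their own. Before cordycepin 5 of these were called lower in xrn3-8 (19.2%, against 17.6% of all probe sets) and 0 higher (against 14.3%), beside 10 and 2 of the 43 photosynthesis genes, with medians of -0.12 in both lists. The lowest were rpoB (-0.80 ± 0.20, adjusted p = 0.0049) and rpoC2 (-0.72 ± 0.17, adjusted p = 0.0040), which encode core subunits of the chloroplast's own RNA polymerase, and rps2 (-0.61 ± 0.11, adjusted p = 3.98e-04). The signals of rpoB were 5.66, 5.59 and 5.58 in Col-0 and 4.37, 4.78 and 5.27 in xrn3-8 before cordycepin, and 5.35, 5.51 and 6.03 in Col-0 and 5.50, 5.66 and 6.06 in xrn3-8 after it. After cordycepin 4 were called higher (15.4%, against 16.6% of all probe sets) and 0 lower (against 15.6%). Over time in xrn3-8, 12 were called higher (46.2%, against 24.5%) and 4 lower (15.4%, against 15.9%) relative to the array average, the latter including, with the same direction under all 4 other scalings, rps18 (-0.54 ± 0.12, adjusted p = 0.0021) and rpl33 (-0.42 ± 0.12, adjusted p = 0.0098), which stand in 1 unit with petL, petG and psaJ. Whether the photosynthesis genes and the other chloroplast genes differ was not tested.

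Of 53 nuclear genes listed for the same complexes, 11 have a named probe set. Before cordycepin 4 of these were higher in xrn3-8 (36.4%, against 14.3% of all probe sets) and 1 lower (9.09%, against 17.6%), with a median of 0.17. Those higher were NDHL, an NDH subunit (0.51 ± 0.08, adjusted p = 2.10e-04), PSBY of photosystem II (0.38 ± 0.09, adjusted p = 0.0026), LHCB4.3, an antenna protein gene (0.35 ± 0.11, adjusted p = 0.0280), and ATPC1, the gamma subunit of ATP synthase (0.33 ± 0.07, adjusted p = 0.0025). The gene that was lower was NDHN, another NDH subunit (-0.31 ± 0.09, adjusted p = 0.0164). The calls of PSBY, LHCB4.3 and ATPC1 were lost under centring on hybridization controls, and that of LHCB4.3 also without Col-0 replicate 1 or 2 or xrn3-8 replicate 2 before cordycepin. After cordycepin 4 were higher (36.4%, against 16.6% of all probe sets) and 0 lower (against 15.6%). Among 19 nuclear genes listed for chloroplast transcription and RNA decay, sigma factors included, only the phage-type polymerase gene RPOTmp was measured, at -0.14 ± 0.10 before cordycepin (adjusted p = 0.3180). Of 11 mitochondrial genes, recognised by symbol, 5 were called lower (45.5%, against 17.6% of all probe sets) and 0 higher (against 14.3%) in xrn3-8 before cordycepin, with a median of -0.18. Over time in the mutant, 4 were called higher (36.4%, against 24.5%) and 2 lower (18.2%, against 15.9%) relative to the array average. Whether these lists differ from other genes was not tested.

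Among markers of other tissues, none of the 6 root, 4 seed or 2 pollen and anther genes has a named probe set, so their part in these results was not tested. Of 6 leaf mesophyll markers 2 were measured, and both read high in all groups. RCA, the Rubisco activase gene, had group means from 12.81 to 13.03 and LHCB4.2, an antenna protein gene of photosystem II, from 10.53 to 11.97. Both also belong to the nuclear genes of the complexes counted above, so the 2 lists share genes. After cordycepin both were called higher in xrn3-8. Over time, relative to the array average, LHCB4.2 was called lower in both genotypes (-1.27 in Col-0 and -0.67 in xrn3-8). Its interaction of 0.59 was called higher, as were 5.08% of all probe sets. Before cordycepin neither marker was called between the genotypes (0.19, adjusted p = 0.0590 and 0.17, adjusted p = 0.2125). Both values were above 0, as were those of 9 of the 43 members, petG and rbcL included, while 34 members lay below 0. The share of mesophyll cells in the seedlings was not tested. The deposited log2 values ran from 1.74 to 13.22, and the correlation between arrays of a group was 0.995 to 0.998.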

How the data were processed

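Per the labels' protocols, total RNA was extracted with a Qiagen kit and labelled as biotinylated cRNA. The authors deposited 1 table of log2 values, normalized between arrays; the submitters' processing notes name affy 1.48.0 and limma 3.26.9, with settings not given in the sources used here. Its 22810 probe sets include 64 Affymetrix controls, kept out of the tests. Group means were estimated from all 12 arrays together by limma 3.58.1 under R 4.3.3, using lmFit followed by eBayes, with 8 residual degrees of freedom and a prior worth 7.964. The script was tested on simulated data, and 5 contrasts were taken. The number of arrays limits the precision. The series' design text calls the replicates biological. The members and gene lists were chosen with earlier results of these data known, as were the tests. Values in every array were given for the 3 largest called rises and falls of each contrast and the brightest gene of each complex. Those of the genes in their transcription units were given too. The values of psbE, petA and the pairs within a unit were added after they were seen. Those of psbA before cordycepin, of ndhB and of rpoB also stand outside this rule. The order of transcription is textbook knowledge. No coordinates or sequences were used. Mitochondrial genes were matched by symbol, other genes by Entrez identifier. Alternatives covered the scaling, the prior variance, array weights, a filter on low signals, the threshold, the probe sets, the arrays fitted, the replicate number as a block and each array left out.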

Additional observations from a re-analysis of the deposited data

Results flagged for a closer look

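The change over 60 min of cordycepin differed between the genotypes, by the interaction term of limma over all probe sets, for 4 of the 69 chloroplast genes measured, all above 0. That is 5.8% of them, near the 5.08% of all probe sets called higher in this contrast. For psbC the change in xrn3-8 exceeded that in Col-0 by 0.77 ± 0.16 (adjusted p = 0.0059), with xrn3-8 at 9.48 ± 0.06 before and 10.14 ± 0.05 after (SD, n = 3) and Col-0 at 10.63 ± 0.21 and 10.51 ± 0.21. For psbD it did so by 0.98 ± 0.23 (adjusted p = 0.0138), with xrn3-8 at 8.40 ± 0.14 and 9.14 ± 0.29 and Col-0 at 9.54 ± 0.30 and 9.30 ± 0.25. Both calls held under the 4 other scalings and with any array left out. For rps2, the ribosomal protein gene upstream of atpI, the value was 0.54 ± 0.16 (adjusted p = 0.0437), and for rpl14, a gene of the large ribosomal subunit, 0.68 ± 0.19 (adjusted p = 0.0352). The call of rps2 was lost when any of 9 of the 12 arrays was left out and that of rpl14 for 8. Bacillus subtilis centring also ended the calls of rps2 (0.37, adjusted p = 0.1510) and rpl14 (0.51, adjusted p = 0.0813), as did hybridization and housekeeping centring, and quantile normalization ended that of rps2.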

How the results depend on the processing

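The 12 calls between genotypes before cordycepin kept their direction under the 4 other scalings, and 8 (psaA, psbB, psbC, psbD, psbT, psbZ, petG and atpI) were called under each; the count of higher members was 1 with hybridization control centring. After cordycepin the median was -0.19, -0.16 and -0.17, with 1, 1 and 1 members higher, under Bacillus subtilis, hybridization and housekeeping centring. Under the first and last, 5 and 4 members were lower. Of all 22746 probe sets, 2425, 1738 and 2630 were higher, and 5114 and 4740 were lower under the first and last. In Col-0 over time quantile normalization gave 5 members higher, against 6282 of all probe sets. There the same centrings gave medians of -0.19, -0.0665 and -0.16, with 0 members higher in each and 17, 3 and 13 lower. Of all probe sets they called 1353, 1306 and 1635 higher and 11556, 5426 and 10301 lower. In xrn3-8 the centrings gave -0.29, -0.0726 and -0.18, with 0, 3 and 1 members higher, and 27 and 17 lower under Bacillus subtilis and housekeeping centring. Of all probe sets 237, 410 and 520 were higher, and 17244 and 13229 lower under Bacillus subtilis and housekeeping centring. The interaction median was -0.11 and -0.0320 under those 2 centrings. The median of all probe sets over time moved to -0.25, -0.12 and -0.21 in Col-0 and -0.39, -0.17 and -0.28 in xrn3-8. In the interaction 1 member, psbM, was lower under Bacillus subtilis and housekeeping centring, with a trended and robust prior variance and with the replicate number as a block.

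Bacillus subtilis centring turned the changes in Col-0 of psbE (-0.0258), psbF (-0.13), psbL (-0.0625), petA (-0.0425), petG (-0.0125) and petL (-0.0825). It turned those in xrn3-8 of psaA (-0.11), psbE (-0.25), psbN (-0.11), petA (-0.21), atpF (-0.16), atpH (-0.0558), ndhG (-0.16), ndhJ (-0.10), ndhK (-0.10) and rps14 (-0.11). Housekeeping centring turned psbF (-0.0927), psbL (-0.0260), petA (-0.0060) and petL (-0.0460) in Col-0, and psbE (-0.13), petA (-0.10), atpF (-0.0447), ndhG (-0.0513) and rps14 (-0.0013) in xrn3-8. The 5 genes behind this centring, of 14 listed, rose over time themselves on the deposited scale, with medians of 0.33 in Col-0 and 0.41 in xrn3-8. Of the 5, 3 (60%) and 4 (80%) were called higher, against 26.3% and 24.5% of all probe sets. Hybridization centring turned psbF in Col-0 (-0.0031) and psbE in xrn3-8 (-0.0259). The cause was not tested.

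At an adjusted p under 0.01, by the stricter threshold's construction, 1 member was higher before cordycepin, 1 higher and 0 lower after it, 1 higher and 0 lower in Col-0 over time, 8 higher in xrn3-8 and 1 in the interaction. Of all 22746 probe sets, 2248 were higher before cordycepin, and 2604 were higher and 2508 lower after it. Over time 4291 were higher and 3756 lower in Col-0 and 3450 higher in xrn3-8, and 476 were higher in the interaction. With each array left out, at the threshold of 0.05, members higher and lower numbered 1 to 3 and 7 to 11 before cordycepin (median -0.18 to -0.08). After it they numbered 1 to 3 and 0 to 2 (median -0.11 to -0.03). Over time they numbered 2 to 10 and 0 to 1 in Col-0 (median 0.11 to 0.17), 9 to 18 and 0 to 0 in xrn3-8 (median 0.16 to 0.25) and 2 to 4 and 0 to 1 in the interaction (median 0.0367 to 0.1050). The lowest count in Col-0, 2, came without Col-0 replicate 2 after cordycepin, and the lowest in xrn3-8, 9, without xrn3-8 replicate 2 before or replicate 3 after it. In the same fits, all probe sets higher and lower numbered 2648 to 3453 and 3167 to 4232 before cordycepin. After it they numbered 3232 to 3762 and 3080 to 3559. Changes over time gave 5137 to 6256 and 4200 to 4674 in Col-0, and 4348 to 5567 and 3190 to 3630 in xrn3-8. The interaction gave 792 to 1114 and 441 to 635. Same-numbered arrays correlated by -0.0856 to 0.176 in their deviations and best with their own number in 22 of 36 comparisons, where 12 would be so by chance. This is a hint from the data that numbers may be shared. The 36 comparisons take each pair of groups from both sides, so they are not independent. The numbers were not taken as pairs because the labels tie them to nothing and most of the correlations were under 0.1. Taken by number after cordycepin, all 3 differences between xrn3-8 and Col-0 were below 0 for 15 of the 43 members and above 0 for 2, against 25.6% and 29.3% of all probe sets. The block left the counts between genotypes after cordycepin at 2 higher and 1 lower, called psbM in the interaction (adjusted p = 0.0355), and ended the calls of petB before cordycepin (adjusted p = 0.0644) and of psbF, psbL and ndhK in Col-0. The signal of ndhF, in the lowest 40% of probe sets, limits what can be said of it.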
